A study of Mus musculus with 12 samples.

Results

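The 10 genes described here are Sox1, Sox3, Sox21, Sox4, Sox11, Sox5, Sox6, Sox8, Sox9 and Sox10. They belong to the Sox family of transcription factors and are known from neural and glial cells, and Sox2 is not among them. The 10 were chosen by name, with earlier results of these data known. Each was read from the brightest probe set annotated to that gene alone. They are 10 of the 19938 genes measured. All 10 had exactly 1 such probe set. Levels are log2 of the deposited intensity, on which a difference of 1 is a doubling. Levels of different genes are not compared, because they come from different probes.

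Expression was measured on 12 Mouse Gene 1.0 ST arrays in a study of how mouse astrocytes become induced pluripotent stem cells (iPSCs). The astrocytes (3 arrays) were cultured from the cortex at postnatal day 3 in medium with 10% serum and sorted as negative for a green fluorescent protein (GFP) reporter in the Sox1 gene. The day 6 cells (3 arrays) were astrocytes given retroviruses for Oct4, Klf4, Sox2 and c-Myc, grown with 15% serum and leukaemia inhibitory factor (LIF) at 1000 U/ml in medium for embryonic stem cells, and sorted as GFP-positive at day 6. The neural stem cells (2 arrays) came from the telencephalon at embryonic day 12.5 to 14.5 and grew with basic fibroblast growth factor and epidermal growth factor. The astrocyte iPSCs (2 arrays) were mature iPSCs made from such astrocytes. These 4 groups share the Sox1-GFP genotype, labelled Sox1+/-, in which 1 Sox1 allele carries the reporter. The MEF iPSCs (2 arrays), from mouse embryonic fibroblasts, are of 1 line, iPS-MEF-Ng-20D-17, which carries a Nanog-GFP-IRES-Puro reporter in place of Sox1-GFP. Both iPSC groups grew on mitomycin C-treated feeder fibroblasts with LIF at 1500 U/ml and 15% serum or serum replacement; the labels do not say which of these each array had. The submitters call the replicates biological, but the labels name no animal or culture for any of them. The p values therefore set differences against the spread of these particular arrays, and part of that spread may be technical. The pluripotency list had a summed log2 intensity of 14.7 to 14.9 in the iPSC groups, 12.2 in day 6 cells and 10.6 to 11.1 in the neural groups. The list of 14 SoxB1 partner and neural progenitor genes did not set the neural stem cells apart from the astrocytes, with 1 gene higher, 1 lower and a median difference of -0.09. Medium, age and sort go with the groups and cannot be told apart from them. In these bulk samples, fewer cells of a type and less RNA per cell cannot be told apart, nor can a change within cells and the choice of cells by the sort.

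Sox proteins bind a short AT-rich DNA motif through a shared high mobility group domain and bend the DNA there, usually beside a partner factor. The SoxB1 proteins Sox1, Sox2 and Sox3 keep neural progenitors undifferentiated, and the SoxB2 protein Sox21 counteracts them. The SoxC proteins Sox4 and Sox11 act in progenitors leaving the cycle and in young neurons, the SoxD proteins Sox5 and Sox6 lack an activation domain of their own and work beside other Sox proteins, and the SoxE proteins Sox8, Sox9 and Sox10 specify glia, with Sox9 required for astrocytes and Sox10 for oligodendrocytes and neural crest derivatives.

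The sequences upstream of 3 members, Sox4, Sox11 and Sox8, are shown. Sox4 and Sox11 were taken because the SoxC pair went opposite ways in the day 6 cells. All 3 were among the 7 members with their highest group mean in neural stem cells. Each sequence is the 250 bases before the listed transcription start, from RefSeq on GRCm38.p6. It is written 5′ to 3′ on the gene's own strand, which is the minus strand for all 3. RefSeq promoter entries matched 7 of the 10 members, with Sox3, Sox9 and Sox10 unmatched. The windows are chr13:28953700-28953949 for Sox4, chr12:27342719-27342968 for Sox11 and chr17:25570687-25570936 for Sox8. Capitals mark every match, read on either strand, to the letters ACAAT of the Sox core motif, to the letters CCAAT of the CCAAT box, to the letters GGGCGG of the GC box or to the letters TATAAA of the TATA box. No match overlapped another.
Sox4: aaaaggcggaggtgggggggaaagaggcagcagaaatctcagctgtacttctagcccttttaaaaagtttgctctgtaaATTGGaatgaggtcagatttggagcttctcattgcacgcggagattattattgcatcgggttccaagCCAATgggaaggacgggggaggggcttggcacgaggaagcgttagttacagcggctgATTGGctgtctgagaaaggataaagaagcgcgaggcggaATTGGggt
Sox11: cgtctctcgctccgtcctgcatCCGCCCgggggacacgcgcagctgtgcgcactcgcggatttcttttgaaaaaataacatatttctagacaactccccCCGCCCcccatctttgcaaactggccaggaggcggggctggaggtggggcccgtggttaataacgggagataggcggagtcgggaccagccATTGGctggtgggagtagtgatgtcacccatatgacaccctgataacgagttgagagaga
Sox8: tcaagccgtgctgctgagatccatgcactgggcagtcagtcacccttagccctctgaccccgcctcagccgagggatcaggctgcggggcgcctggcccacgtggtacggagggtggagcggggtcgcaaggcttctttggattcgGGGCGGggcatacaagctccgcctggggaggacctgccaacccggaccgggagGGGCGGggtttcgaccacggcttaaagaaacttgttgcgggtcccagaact

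The SoxC partners differed in these letters. Sox4 held 4 CCAAT boxes, at 171, 104, 47 and 8 bases before its start, and 11 CpG dinucleotides. Of 32851 promoter windows of this length, 33.8% held at least 1 CCAAT box and 0.84% held at least 4. Sox11 held 1 CCAAT box at 60 bases and 2 GC boxes at 228 and 151 bases, with 17 CpGs. Sox8 held 2 GC boxes, at 104 and 51 bases, with 18 CpGs and a GC content of 65.6%. Of all windows 32.7% held a GC box and 16.7% held at least 2. The median window had 6 CpGs and a GC content of 52.4%, and the 90th percentiles were 25 CpGs and 69.2%. None of the 3 windows held the letters of the Sox core motif, which 27.7% of all windows did, or of the TATA box, which 12.4% did.

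**Figure D1:**
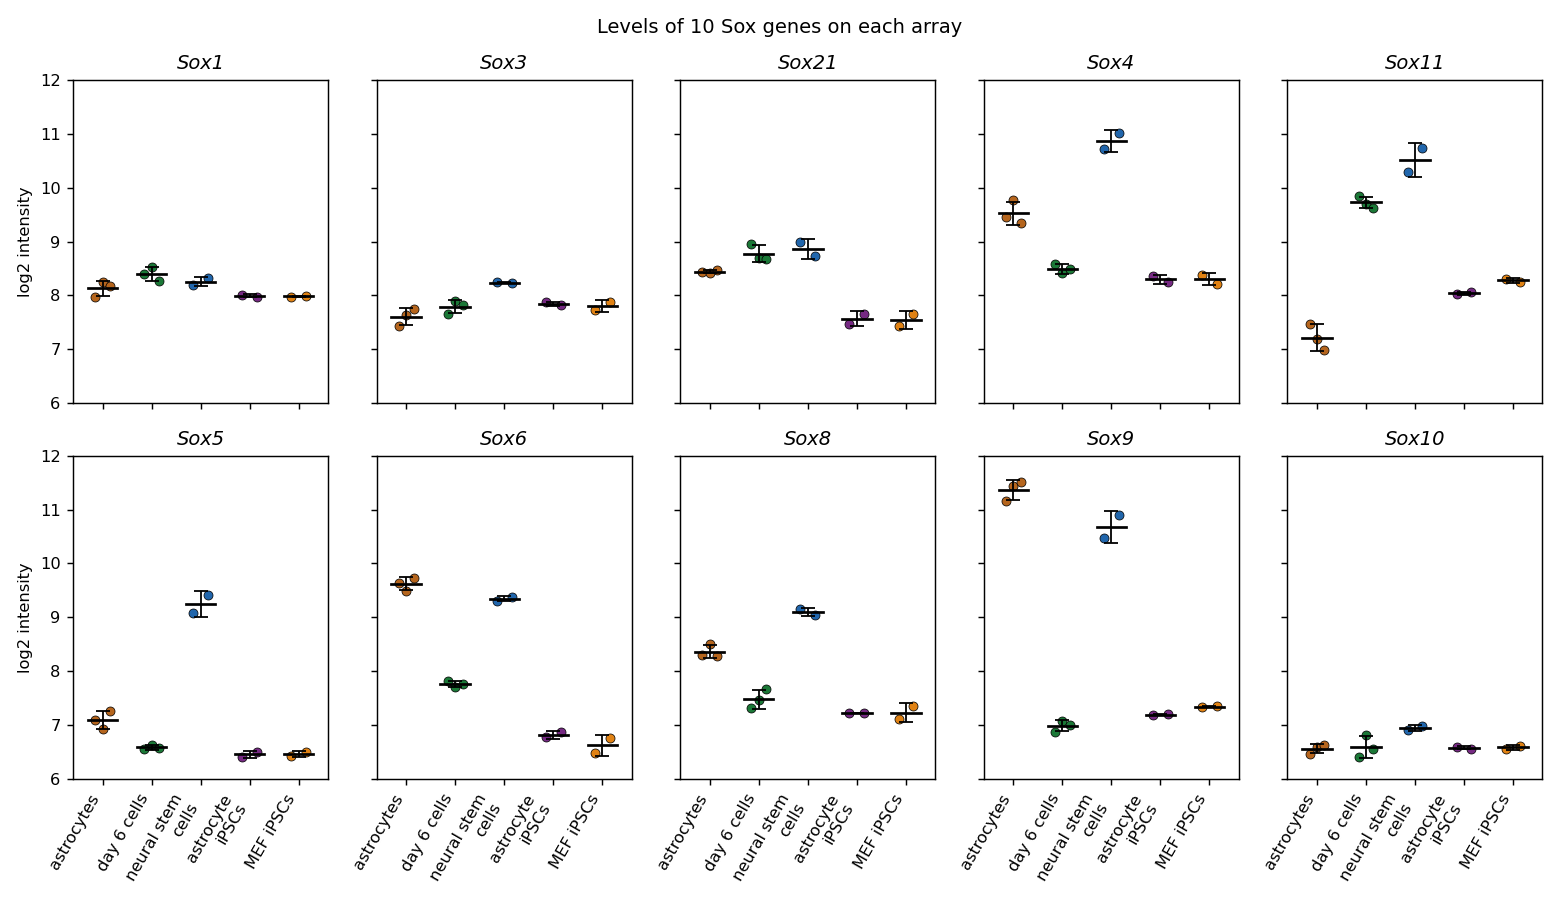
Log2 intensity of the 10 Sox members on each of the 12 arrays, 1 panel a gene, with a point for each array, a bar at the mean of each group and whiskers of 1 SD. Sox9 spans 4.38 between its highest and lowest group means, whereas Sox1, Sox3 and Sox10 each span less than 0.7.

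Among the SoxE genes, Sox9 was high in both neural groups and low in the day 6 cells and both iPSC groups. Its levels were 11.16, 11.43 and 11.51 in astrocytes and 10.47 and 10.89 in neural stem cells. In the day 6 cells they were 6.87, 7.07 and 7.01, in astrocyte iPSCs 7.18 and 7.20, and in MEF iPSCs 7.33 and 7.35. No array of either neural group came within 3 units of an array of the other groups. The day 6 cells stood 20.9-fold below the astrocytes (log2 difference -4.38 ± 0.12 SE, limma adjusted p = 1.10e-10), the 62nd largest absolute difference of all genes in that comparison. Against the neural stem cells the difference was -3.70 ± 0.13 (adjusted p = 3.22e-09). Between the day 6 cells and the astrocyte iPSCs no further fall was measured (difference 0.21, 95% interval -0.07 to 0.49). The astrocyte marker list moved the same way. Its summed intensity, as log2, was 15.5 to 15.7 in astrocytes and 13.5 in neural stem cells. It was 12.4 to 12.5 in day 6 cells and 11.9 to 12.3 in the iPSC groups. Of its 18 genes 15 fell between astrocytes and day 6 cells, beside 10.1% of all genes. Gfap, the astrocyte intermediate filament gene, had a mean of 12.32 in astrocytes, 6.37 in day 6 cells and 6.12 in neural stem cells, so in the neural stem cells Sox9 was high where Gfap was low. Fibroblast, feeder and meningeal genes fell as well: the summed log2 intensity of their list was 13.3 to 13.4 in astrocytes, 9.94 to 10.1 in day 6 cells and 9.81 to 9.95 in neural stem cells. Of its 10 genes 6 fell and 0 rose from astrocytes to day 6 cells, where 10.1% of all genes fell and 6.75% rose. Sox9, Sox6 and Sox4 fell in the same comparison. Ogn was at -7.21, Thy1 at -4.498 and Pdgfrb at -2.84. The part of either marker list in these Sox differences was not tested.

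Sox8, which shares much of its binding with Sox9 and Sox10, had its highest level in neural stem cells, at 9.16 and 9.05. It was 8.30, 8.51 and 8.28 in astrocytes and 7.31, 7.46 and 7.67 in day 6 cells. The iPSC levels were 7.22 on both astrocyte iPSC arrays and 7.11 and 7.35 on the MEF iPSC arrays. The groups ran from neural stem cells through astrocytes to the day 6 cells with no overlap of arrays, while the MEF iPSC arrays reached into the range of the day 6 cells. Sox8 fell below the neural stem cells in day 6 cells (-1.62 ± 0.11, adjusted p = 6.17e-07). Its difference from astrocytes, -0.88 ± 0.10 (adjusted p = 1.47e-05), missed the limit of 1 that a call needed beside an adjusted p under 0.05.

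Sox10, the regulator of oligodendrocytes and Schwann cells, stayed within a narrow band. Its group means ran from 6.56 in astrocytes to 6.95 in neural stem cells, and its arrays from 6.41 to 6.99. The neural stem cells stood 0.39 ± 0.10 above astrocytes (limma adjusted p = 0.00912), below the limit of 1. With each array left out in turn this difference was 0.34 to 0.43, not always with an adjusted p under 0.05. The other 4 groups differed from one another by at most 0.03. The neural stem cells carried the highest level of the oligodendrocyte lineage list, with a summed log2 intensity of 13.4 against 11.97 to 12.38 in astrocytes and 10.1 in day 6 cells. Of its 13 genes 6 rose and 1 fell from astrocytes to neural stem cells, where 6.49% of all genes rose and 8.10% fell. Pdgfra, the receptor of oligodendrocyte precursors, rose by 3.20, and the myelin enzyme gene Cnp was at -1.24. The late myelin genes Mog, Mobp and Opalin differed there from astrocytes by -0.04, -0.11 and 0.01. Whether the Sox10 signal lies above the background of its own probes was not tested.

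The SoxD genes were both lower in day 6 cells than in neural stem cells, but differed in where they were high. Sox6, a partner of Sox9 in cartilage that also holds back oligodendrocyte precursors from maturing, read 9.63, 9.50 and 9.73 in astrocytes and 9.31 and 9.38 in neural stem cells. It was 7.82, 7.71 and 7.77 in day 6 cells, 6.77 and 6.87 in astrocyte iPSCs and 6.48 and 6.77 in MEF iPSCs. These levels stepped down from the neural groups to the day 6 cells and again to the iPSCs, with no overlap between the 3 steps. The first step was -1.85 ± 0.09 from astrocytes (3.61-fold, adjusted p = 7.47e-09). The MEF iPSCs, made from fibroblasts, differed from the day 6 cells by -1.14 ± 0.10 (adjusted p = 4.26e-06). The second step, from day 6 cells to the astrocyte iPSCs, was -0.95 ± 0.10 (adjusted p = 1.69e-05), just under the limit. Subtracting 16 intensity units before taking logs brought it to -1.06, past the limit.

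Sox5, which with Sox6 regulates the timing of oligodendrocyte and neuron differentiation, was highest in the neural stem cells, on arrays far above all others. Its levels were 9.08 and 9.41 there, 7.09, 6.93 and 7.25 in astrocytes and 6.55, 6.64 and 6.58 in day 6 cells. They were 6.41 and 6.51 in astrocyte iPSCs and 6.42 and 6.50 in MEF iPSCs. The neural stem cells exceeded astrocytes by 2.16 ± 0.11 (4.46-fold, adjusted p = 3.13e-08) and day 6 cells by more, at 6.32-fold (-2.66 ± 0.11 for day 6 cells minus neural stem cells, adjusted p = 1.07e-08). The lower level in day 6 cells than in astrocytes, -0.50 ± 0.10 (adjusted p = 0.000933), was under the limit, and day 6 cells and MEF iPSCs differed by 0.13 (adjusted p = 0.48).

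The SoxC pair went opposite ways in the day 6 cells against astrocytes, while both were lower there than in neural stem cells. Sox4 read 9.45, 9.77 and 9.35 in astrocytes, 8.59, 8.41 and 8.49 in day 6 cells and 10.72 and 11.01 in neural stem cells. In the iPSC groups it was 8.36 and 8.24 in those from astrocytes and 8.38 and 8.22 in those from fibroblasts, just below the lowest day 6 array. The day 6 cells fell by 1.03 ± 0.11 (adjusted p = 1.10e-05) against astrocytes and lay 5.17-fold below the neural stem cells (-2.37 ± 0.13, adjusted p = 7.66e-08). The first of these calls sat at the limit: it was -0.93 with arrays centred on their medians, -0.91 without astrocyte replicate 2 and -0.98 without day 6 replicate 2, each under 1 in size with an adjusted p of at most 0.000108.

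Sox11 was the only member that rose from astrocytes to day 6 cells. Its astrocyte levels were 7.48, 7.18 and 6.99, and its day 6 levels were 9.85, 9.70 and 9.63. The neural stem cells had 10.30 and 10.73, the astrocyte iPSCs 8.02 and 8.06, and the MEF iPSCs 8.31 and 8.25. The order of the 5 groups was therefore neural stem cells, day 6 cells, MEF iPSCs, astrocyte iPSCs and astrocytes, with no overlap of arrays between neighbours, although the 2 iPSC groups differed by only 0.24 (adjusted p = 0.578). Sox11 rose 5.70-fold from astrocytes to day 6 cells (2.51 ± 0.13, adjusted p = 1.98e-08). It was lower in both iPSC groups than in day 6 cells, by -1.68 ± 0.15 (adjusted p = 5.47e-06) and -1.44 ± 0.15 (adjusted p = 1.89e-05). The day 6 cells stayed below the neural stem cells by -0.79 ± 0.15 (adjusted p = 0.00125), which became -1.005 without neural stem cell replicate 1, past the limit. The difference of 1.07 ± 0.15 by which MEF iPSCs exceeded astrocytes also sat at the limit. It was 0.95 without astrocyte replicate 3 and 0.9993 after cyclic loess normalization, both under the limit.

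The SoxB genes among the members, Sox1, Sox3 and Sox21, moved less than the SoxC and SoxD members. The group means of Sox3 spanned 0.63 and those of Sox21 spanned 1.31, against 2.57 for Sox4, 2.79 for Sox5, 3.00 for Sox6 and 3.30 for Sox11. This does not extend to Sox2, a SoxB1 gene outside the members, whose group means spanned 2.50. Sox1, whose reporter defined the sort, read 7.97, 8.25 and 8.17 in the GFP-negative astrocytes and 8.40, 8.53 and 8.27 in the GFP-positive day 6 cells. It was 8.20 and 8.32 in neural stem cells, 8.01 and 7.98 in astrocyte iPSCs and 7.98 and 7.99 in MEF iPSCs. The day 6 arrays lay above the astrocyte arrays by a narrow margin and overlapped those of the neural stem cells. The day 6 cells exceeded astrocytes by 0.27 ± 0.09 (95% interval 0.08 to 0.46, adjusted p = 0.021), and astrocyte iPSCs lay below the day 6 cells by -0.41 ± 0.10 (adjusted p = 0.00711). Neither reached the limit, and the whole span of Sox1 over the 5 groups was 0.42. Leaving out each array in turn gave 0.19 to 0.33 for day 6 cells minus astrocytes, with a limma adjusted p of up to 0.0937. The MEF iPSCs, which have no Sox1 reporter, differed from astrocyte iPSCs by -0.01 (95% interval -0.24 to 0.22). Which of the Sox1 alleles the probes read was not tested.

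Sox3, the X-linked SoxB1 gene of early neural progenitors, was highest in neural stem cells at 8.24 and 8.23. Its other arrays lay between 7.44 and 7.89, with overlap between most of the groups; the astrocyte iPSCs (7.88 and 7.82) lay above the astrocytes (7.44, 7.63 and 7.75). The neural stem cells exceeded astrocytes by 0.63 ± 0.10 (adjusted p = 0.000241), and day 6 cells exceeded astrocytes by 0.18 (95% interval -0.01 to 0.38, adjusted p = 0.114). Sox21, the SoxB2 gene, read 8.99 and 8.72 in neural stem cells and 8.96, 8.70 and 8.68 in day 6 cells. These arrays overlapped, and the difference was -0.08 with a 95% interval of -0.33 to 0.18. It was 8.43, 8.41 and 8.47 in astrocytes, 7.47 and 7.67 in astrocyte iPSCs and 7.43 and 7.66 in MEF iPSCs. The day 6 cells lay 0.34 ± 0.10 above astrocytes (adjusted p = 0.0151, under the limit). With each array left out in turn this was 0.25 to 0.39, with a limma adjusted p of up to 0.0661. Sox21 was lower than in day 6 cells by 1.21 ± 0.11 in astrocyte iPSCs (adjusted p = 1.04e-05). In MEF iPSCs it was lower than in day 6 cells by 1.24 ± 0.11 (adjusted p = 9.52e-06). The arrays of the iPSC groups overlapped each other and lay below all others.

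**Figure D2:**
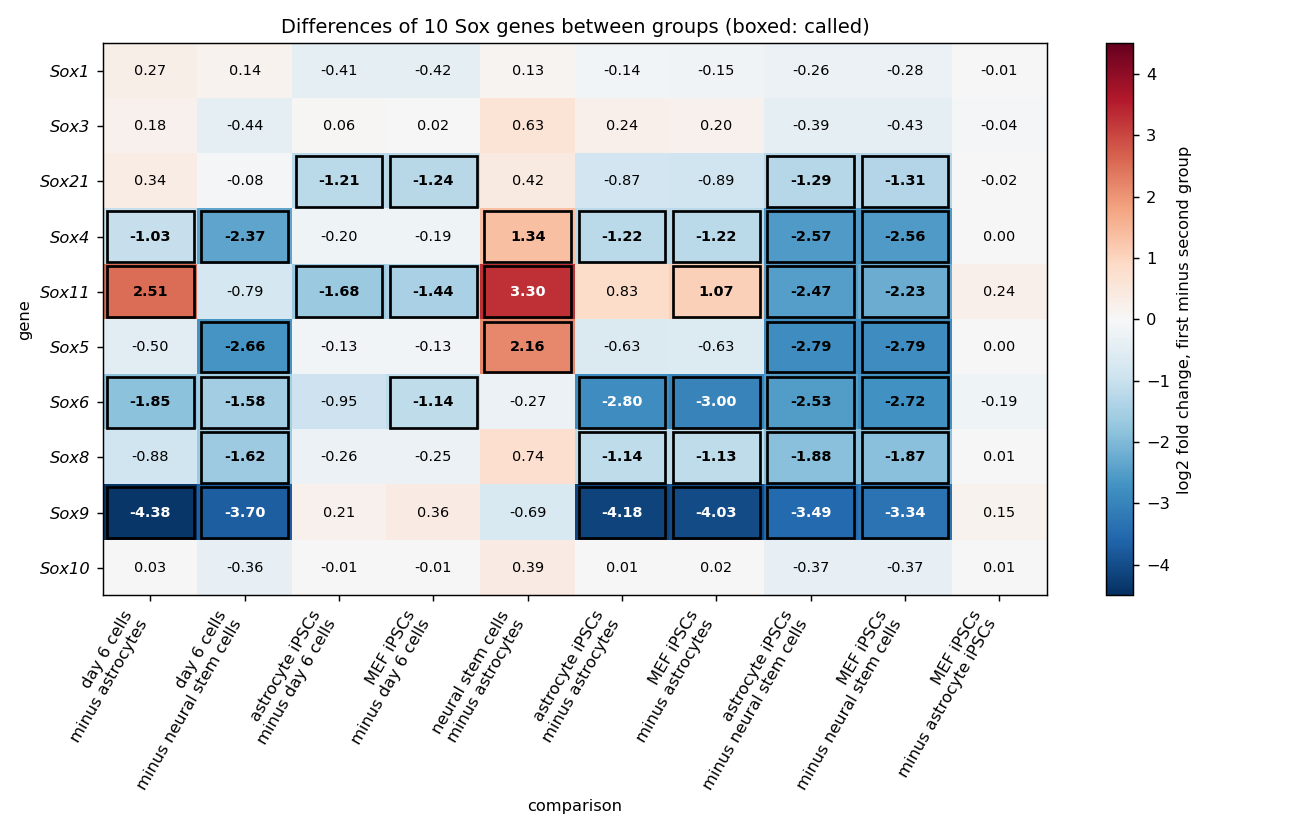
Log2 fold change, first minus second group, of the 10 Sox members (rows) in the 10 comparisons (columns), coloured from blue (lower in the first group) to red (higher), with boxes around called differences. Sox9 in day 6 cells minus astrocytes is the darkest blue at -4.38, and the last column, between the iPSC groups, has no box.

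Counted over the 10 members, day 6 cells differed from astrocytes in 4, with Sox11 higher and Sox4, Sox6 and Sox9 lower; 16.9% of all genes were called in that comparison, 6.75% higher and 10.1% lower. With no limit on the change, 8 of the 10 passed an adjusted p under 0.05, beside 48.9% of all genes. The members' median difference was -0.24, against 0.04 over all genes. Against neural stem cells 5 members were lower in day 6 cells and none higher (Sox4, Sox5, Sox6, Sox8 and Sox9), where 8.88% of all genes were called and 5.94% were lower; without the limit on the change 8 passed, beside 38.4%. The median there was -1.18, against 0.07. Both comparisons use the same day 6 arrays.

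From day 6 cells to astrocyte iPSCs 2 members fell, Sox21 and Sox11, where 6.11% of all genes were called and 2.82% were lower; without the limit 4 members passed, beside 29.6%. In MEF iPSCs, which were made from fibroblasts, 3 were lower than in day 6 cells, with Sox6 as the third. There again 6.11% of all genes were called and 2.93% were lower. The larger gap to the pluripotent cells was from the neural stem cells: Sox21, Sox4, Sox11, Sox5, Sox6, Sox8 and Sox9 were lower, 7 of 10, in astrocyte iPSCs (12.5% of all genes called, 7.51% lower) and the same 7 in MEF iPSCs (12.1% called, 7.45% lower). The members' medians were -2.18 and -2.05, against 0.05 over all genes in each. Against astrocytes, 4 members (Sox4, Sox6, Sox8 and Sox9) were lower in astrocyte iPSCs, with 20.8% of all genes called and 11.4% lower; without the limit 7 passed, beside 51.0%. In MEF iPSCs these 4 were lower and Sox11 higher, with 20.1% called, 8.71% higher and 11.4% lower.

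Between neural stem cells and astrocytes, Sox4, Sox11 and Sox5 were higher in neural stem cells and none was lower, 3 of 10 beside 14.6% of all genes called and 6.49% higher. A further 6 members passed an adjusted p under 0.05 below the limit of 1, so that 9 passed without it beside 45.9% of all genes. Of these 6, Sox3, Sox21, Sox8 and Sox10 were higher and Sox6 and Sox9 lower in neural stem cells. The smaller of these differences moved with the arrays used. With each array left out in turn, Sox21 ran from 0.29 to 0.55, Sox6 from -0.34 to -0.22 and Sox10 from 0.34 to 0.43. Sox21, Sox6 and Sox10 did not keep an adjusted p under 0.05 in every one of these fits. Between the 2 iPSC groups limma called 0 of 10, where 0.742% of all genes were called. No member had an unadjusted p under 0.05 there either, and the largest difference was 0.24, for Sox11. Fibroblast and feeder genes were also present in the iPSC groups. Their summed log2 intensity was 11.8 to 12.6 in astrocyte iPSCs and 11.5 to 11.6 in MEF iPSCs. Day 6 cells had 9.94 to 10.1. In astrocyte iPSCs 8 of 10 of them were higher than in day 6 cells, where 656 of all 19938 genes were higher. The part of these fibroblast and feeder genes in the Sox levels of iPSCs was not tested. The highest group mean belonged to the neural stem cells in 7 of the 10 members and in 16.1% of all genes. The lowest belonged to an iPSC group in 6 of the members and in 29.6% of all genes, and to the neural stem cells in 0 of the members and in 32.9% of all genes.

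**Figure D3:**
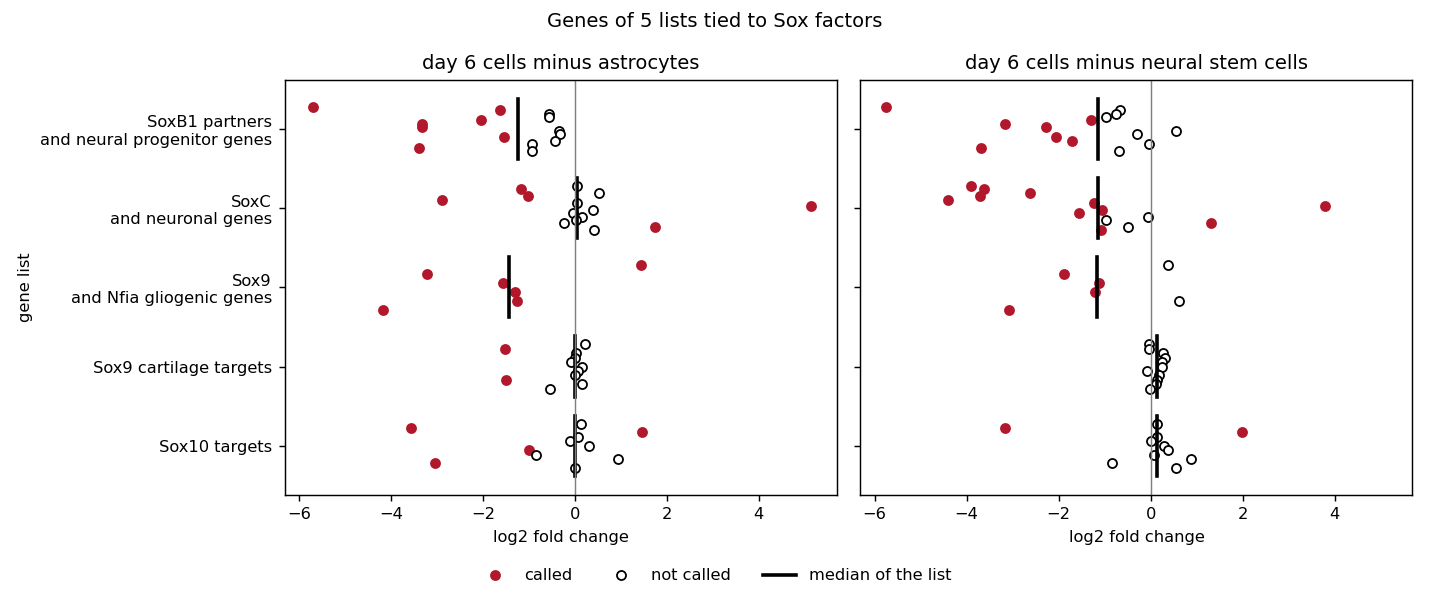
Log2 fold change of each measured gene in 5 lists tied to Sox factors, in day 6 cells against astrocytes (left) and against neural stem cells (right); filled points were called and the vertical bar is the list's median. The SoxB1 partner and gliogenic lists have medians below -1 in both panels, while the cartilage and Sox10 target lists have medians near 0.

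Genes known to act with or under these factors were counted list by list, beside 16.9% of all genes called (10.1% lower) between day 6 cells and astrocytes and 8.88% (5.94% lower) between day 6 cells and neural stem cells. Of 14 SoxB1 partners and neural progenitor genes, 7 fell and 0 rose from astrocytes to day 6 cells (median -1.24 beside 0.04 over all genes). They included Fabp7, the radial glial lipid carrier, at -5.69, Ptprz1, a receptor phosphatase of glial progenitors, at -3.39, and Nr2e1, a nuclear receptor of neural stem cells, at -3.33. Against neural stem cells 7 were again lower (median -1.14), with Fabp7 at -5.76, Ptprz1 at -3.70 and the intermediate filament gene Nes at -3.16. A further fall followed in astrocyte iPSCs, where 5 of 14 were lower than in day 6 cells, beside 2.82% of all genes. They included the eye and forebrain regulator Pax6 at -2.90 and the POU factor gene Pou3f4 at -1.31.

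A list of 6 genes was tied to Sox9 and its partner Nfia in the onset of gliogenesis. It held the known joint targets Apcdd1, Mmd2 and Zcchc24, and the partner family itself, Nfia, Nfib and Nfix. From astrocytes to day 6 cells 5 of the 6 fell and 1 rose (median -1.42). Of the joint targets, Zcchc24 and Mmd2 fell and Apcdd1 rose. Zcchc24 changed by -4.17, Mmd2 by -3.21 and Nfia itself by -1.56, whereas Apcdd1, an inhibitor of Wnt signalling, rose by 1.44. Nfia, Nfib and Nfix fell again from day 6 cells to astrocyte iPSCs, with differences of -2.99, -3.65 and -3.13. Of 11 cartilage targets of Sox9, 2 fell from astrocytes to day 6 cells, the collagen gene Col11a1 and the link protein gene Hapln1, each at -1.51, and the list's median was 0.01; this share is near the 16.9% of all genes called. None of the 11 was called by limma between day 6 cells and neural stem cells (median 0.15).

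Of 11 measured targets of Sox10, 3 fell and 1 rose from astrocytes to day 6 cells (median -0.01), and 1 was lower and 1 higher than in neural stem cells (median 0.14). The endothelin receptor gene Ednrb was at -3.57 and the myelin protein gene Pmp22 at -3.03 against astrocytes. The neuregulin receptor gene Erbb3 rose by 1.46. A link of these changes to Sox10 was not tested. The 10 genes of the neural crest, Schwann cell and melanocyte list had summed log2 intensities between 9.52 and 9.94 on all arrays.

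Of 14 SoxC-linked and neuronal genes, 11 were higher and 1 lower in neural stem cells than in astrocytes (median 1.51, beside -0.03 over all genes). In that comparison 6.49% of all genes were higher and 8.10% lower. The young neuron gene Dcx was at 3.95, the RNA-binding protein gene Elavl4 at 3.16 and the growth cone gene Gap43 at 2.69. In day 6 cells 2 rose and 3 fell against astrocytes (median 0.06). The neurofilament gene Nefl rose by 5.14 and Tead2, a known target of Sox4 and Sox11, by 1.75, whereas the microtubule-associated protein gene Map2 was at -2.88. Dcx differed by 0.06 there (adjusted p = 0.858). Against neural stem cells 9 of the 14 were lower in day 6 cells and 2 higher.

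**Figure D4:**
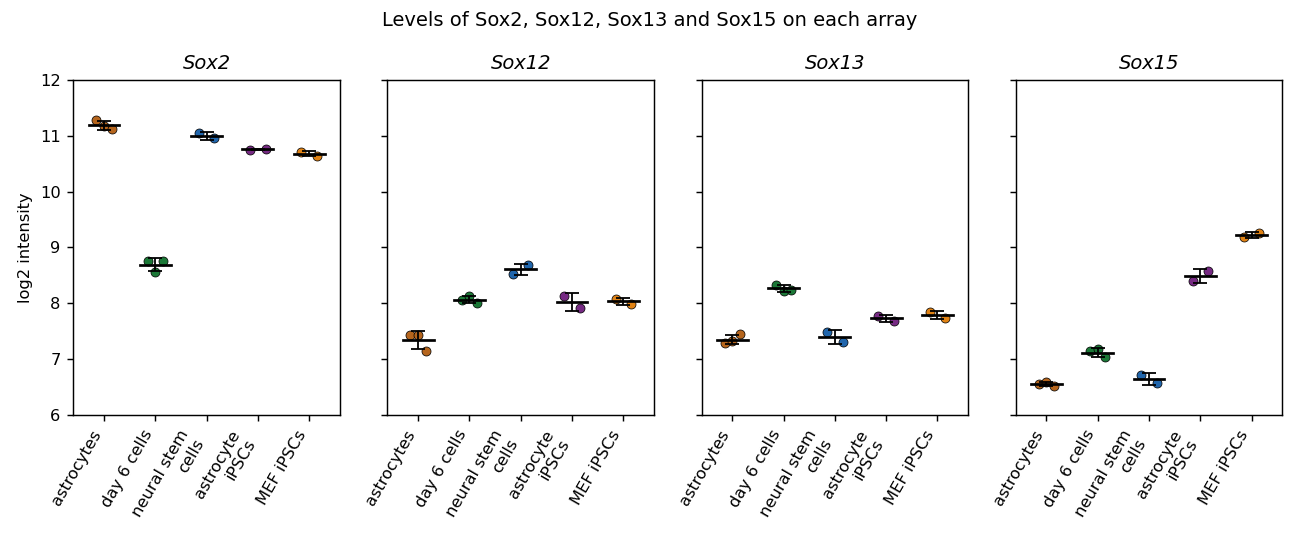
Log2 intensity of Sox2, Sox12, Sox13 and Sox15, Sox genes outside the 10 members, with a point for each array, a bar at the group mean and whiskers of 1 SD. Sox2 is lowest in day 6 cells at 8.69, and Sox15 is highest in the iPSC groups, at 8.49 and 9.23.

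Among 10 other Sox genes, Sox2, 1 of the 4 factors delivered by retrovirus, was the only one called in either day 6 comparison with a neural group. It read 8.76, 8.56 and 8.75 in day 6 cells and between 10.64 and 11.28 on the other 9 arrays, a fall of 2.50 ± 0.07 from astrocytes (adjusted p = 2.12e-10) and a rise of 2.07 ± 0.08 from day 6 cells to astrocyte iPSCs (adjusted p = 1.05e-08). Sox9 differed by 0.21 in that last comparison (adjusted p = 0.288). Whether the Sox2 probe set reads the retroviral Sox2 RNA, the cell's own or both was not tested. Sox12, the other SoxC gene, was higher in neural stem cells than in astrocytes by 1.27 ± 0.10 (adjusted p = 1.15e-06) and in day 6 cells by 0.73 ± 0.09, under the limit. Sox13, the other SoxD gene, had its highest mean in day 6 cells at 8.27, 0.91 ± 0.07 above astrocytes (adjusted p = 5.75e-07, under the limit), where Sox5 and Sox6 were lower than in astrocytes. Sox15, the SoxG gene active in embryonic stem cells, was higher in both iPSC groups than in day 6 cells. The difference was 1.37 ± 0.08 for astrocyte iPSCs (adjusted p = 2.03e-07) and 2.11 ± 0.08 for MEF iPSCs (adjusted p = 8.33e-09).

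The genes with the most similar profiles over the 5 group means were found for the 7 members that spanned at least 1 unit, by the root mean square difference after centring. Nearest to Sox8 was Grin3a, a glutamate receptor subunit gene, at 0.032, and nearest to Sox5 was the potassium channel gene Kcna2 at 0.065, followed by Lhfpl3 at 0.080. Sox21 lay nearest to Cnot6l, at 0.063, and Sox4 to the chondroitin sulfate proteoglycan gene Cspg5, at 0.12. Sox6 lay nearest to the creatine kinase gene Ckb, at 0.14, and Sox9 to the neuronal kinase gene Mapk10, at 0.22. Sox11 had no close neighbour, with the fibrillin gene Fbn2 nearest at 0.38. Among these 7 members themselves, Sox4 and Sox5 were the closest pair, at 0.27, followed by Sox4 and Sox8 at 0.28. These distances rest on 5 group means and describe likeness on these arrays.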

How the data were processed

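The authors' deposited values are probe set intensity on a linear scale from robust multi-array averaging (RMA), background-corrected and normalized between arrays per the submitters' processing notes; no RMA version is given in the sources used here. The plan had assumed log2 values. Values ran from 20.2 to 15436, with array medians of 97.9 to 104.9. A constant added before deposit, if any, would shrink differences of dim genes; the number of arrays limits the precision. Of 28853 probe sets, 21789 carried 1 gene symbol in the platform annotation, and the brightest per gene was kept (19938 genes).

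Log2 values went into limma 3.58.1 (lmFit, eBayes; R 4.3.3) as 5 group means over all 12 arrays, with Benjamini-Hochberg adjustment over all genes in each of 10 comparisons. A call needed both an adjusted p under 0.05 and a log2 difference of 1 or more in either direction, and the terms rose and fell are used for called genes. The fit was tested on simulated data. Named were all 10 members and up to 3 called genes per list with the largest change and arrays that do not overlap. The nearest profile was named for each member that spanned at least 1 unit. The other names were chosen after their values were seen. Of 165 list entries 160 were measured. The members and lists were chosen with earlier results of these data known, so no list is independent evidence. Alternatives covered normalization, offset, filter, probe set choice, variance moderation, array weights, replicate block, thresholds and each array left out. Microglial and endothelial lists were measured too: 0 of 10 microglial genes, and 1 of 8 endothelial genes (higher), were called between day 6 cells and astrocytes. Within groups, arrays correlated at r = 0.991 to 0.996 across genes.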

Additional observations from a re-analysis of the deposited data

How the results depend on the processing

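Of the 40 calls among 100 pairings of a member with a comparison, 38 were kept in every setting that kept both limits, and no difference that was called reversed. The exceptions are Sox4 between day 6 cells and astrocytes (-0.93 with arrays centred on the median, -0.91 to -0.98 in the left-out arrays that lost it) and Sox11 between MEF iPSCs and astrocytes (0.9993 with cyclic loess, 0.99 with the replicate block, 0.95 without astrocyte replicate 3). Calls were gained for Sox6 between astrocyte iPSCs and day 6 cells with 16 subtracted (-1.06), for Sox11 between day 6 cells and neural stem cells without neural stem cell replicate 1 (-1.005) and for Sox21 between MEF iPSCs and astrocytes without MEF iPSC replicate 2 (-1.01).

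With no fold limit the count of members called was 8 for day 6 cells against astrocytes, 8 against neural stem cells, 4 for astrocyte iPSCs against day 6 cells, 9 for neural stem cells against astrocytes and 7 for astrocyte iPSCs against astrocytes, and 65 pairings in all. Leaving out each array gave 39 to 41 pairings called. Replicate numbers are shared across groups, but same-numbered arrays did not deviate together throughout: over 21 pairs the correlation of deviations ran from -0.10 to 0.41, with 11 over 0.1. The fit with the replicate block called 39 pairings, and changed no other call. Centring the arrays moved the median of all genes between day 6 cells and astrocytes from 0.04 to 0.14. The deposited values give no signal over background per probe set, which limits what can be said of a gene as narrow in range as Sox10. It also limits what can be said of the low levels of Sox9 and Sox5 in day 6 cells and iPSCs.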
